A study of Mus musculus with 2 samples.

Results

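Wt1, Tcf21 and Hoxc10 encode developmental transcription factors that are known as markers of white fat depots. Their surroundings were examined for regions bound by PPARγ, a nuclear receptor required to form fat cells, that the authors named as specific to brown or to white fat. For each gene an interval of 200 kb was taken, reaching 100 kb to either side of the gene's position, and every deposited region with its midpoint inside was counted. The intervals were chr2:104867000-105067000 for Wt1, chr10:22437000-22637000 for Tcf21 and chr15:102697000-102897000 for Hoxc10 with the neighbouring Hoxc genes, all in mm9. They held 1 of the 8268 deposited regions. It lay near Tcf21 and belonged to the list of epididymal white adipose tissue (eWAT). The intervals of Wt1 and Hoxc10 held 0 regions of either list.

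The study mapped PPARγ by chromatin immunoprecipitation followed by sequencing (ChIP-seq) in brown adipose tissue (BAT) and eWAT of male mice of strain 129SV, aged 8 to 10 weeks. The mice were kept on normal chow under 12 h of light and 12 h of dark, and both tissues were taken at zeitgeber time 10 h. For each tissue the ChIP DNA of 4 mice was pooled into 1 library, so no value below has an error between animals and no comparison has a replicate check. The deposited data are a list of 3557 regions named as specific to BAT and a list of 4711 named as specific to eWAT, each region 200 bp wide. Regions bound in both tissues are not analysed here. A gene without a region in these lists is therefore not shown to lack PPARγ.

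Both tissues are bulk tissue and hold other cell types beside fat cells, and whole fat cannot tell a site used by fewer cells from a site bound more weakly in each. The lists give no expression, so whether the 3 genes are higher in white than in brown fat was not measured in these mice. The largest cluster of the BAT list on chromosome 8, the chromosome that carries Ucp1, the uncoupling protein of brown fat, had 5 regions. It was picked from the BAT list for its number of regions, so it does not check the tissue labels. Its distance from Ucp1 was not measured. The cluster spans chr8:85796451-85811850, with scores of 2.54 to 10.16. A window of 200 kb around it held the same 5 BAT-specific regions and 1 eWAT-specific region.

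PPARγ binds DNA as a partner of the retinoid X receptor, mostly at distal enhancers, and its sites differ between kinds of fat cell. Wt1 is a zinc finger factor of the mesothelium and of visceral fat precursors. Tcf21 is a basic helix-loop-helix factor of visceral mesenchyme that is found in white preadipocytes. Hoxc10 is a homeobox gene of the Hoxc cluster, whose members mark position along the body axis and are known from white fat of the posterior body.

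The scale for these counts was taken from windows of the same width, 200 kb, tiled over the chromosomes. Of 12849 windows, 24.1% held at least 1 eWAT-specific region and 17.9% held at least 1 BAT-specific region, while 64.9% held none of either list. Empty intervals like those of Wt1 and Hoxc10 were thus the most common kind. The pattern of Tcf21, with 1 eWAT-specific and 0 BAT-specific regions, was shared by 1474 windows (11.5%). At the mean of all windows, 3 of them would hold 1.10 eWAT-specific and 0.828 BAT-specific regions, against 1 and 0 in the 3 genes' intervals. The counts for these genes were near this background in both lists. The windows were not centred on genes and leave gaps in the assembly in, and windows around other genes were not counted. The eWAT share was 1 of 1 region (100%, exact Clopper-Pearson 95% interval 2.50 to 100%), beside 57.0% of all deposited regions, which gives no information on a preference for eWAT at these genes.

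The region in the Tcf21 interval lies at chr10:22451474-22451673, 85.4 kb below the gene position on the coordinate scale. In the order of genes in the RefSeq table, the protein-coding gene next to Tcf21 on that side is Tbpl1, a gene of the TBP family of transcription factors, followed by Slc2a12, a sugar transporter. On the other side the next gene is Eya4, a transcriptional coactivator. The region was not assigned to any of these genes, because the positions of that table are of another genome build.

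The score of the Tcf21 region was 2.44, a value in the authors' own unit, which is not stated. Scores rise in even steps within each list, as a read count multiplied by a constant would, and 2.44 is 7 steps of the eWAT list. If a step is 1 sequenced tag, the exact Poisson 95% interval is 2.81 to 14.4 tags, which covers counting error only. The median eWAT-specific region had 8 steps, which lies within that interval. The region shared rank 2721 of 4711 with all 756 regions of the same score, and 26.2% of the list scored lower. Among the 219 eWAT-specific regions of chromosome 10 it ranked 110, again with ties. It was thus a region of middle to low score in its list.

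The other eWAT-specific region nearest to the Tcf21 region was 277 kb away, at chr10:22728717-22728916. It was the next region on the other side of the gene. That region lay 191.8 kb above the gene position, outside the interval, and also scored 2.44 (7 steps). This score was shared by 756 of the 4711 eWAT-specific regions. Between these 2 sites neither list had a region. Such a spacing is common, since 41.4% of spacings between neighbouring eWAT-specific regions were at least as long. Of window centres, 81.3% fell in a stretch at least as long without a region of either list. The nearest BAT-specific region to Tcf21 was 732 kb above the gene at chr10:23269068-23269267, with a score of 5.08, and on the other side the nearest lay 914 kb away. BAT-specific regions were thus farther from Tcf21 than eWAT-specific ones on both sides. Of all window centres, 78.5% were at least as far from an eWAT-specific region as Tcf21 was, and 38.6% were at least as far from a BAT-specific region. Both distances are common over the genome, and neither was tested.

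**Figure D1:**
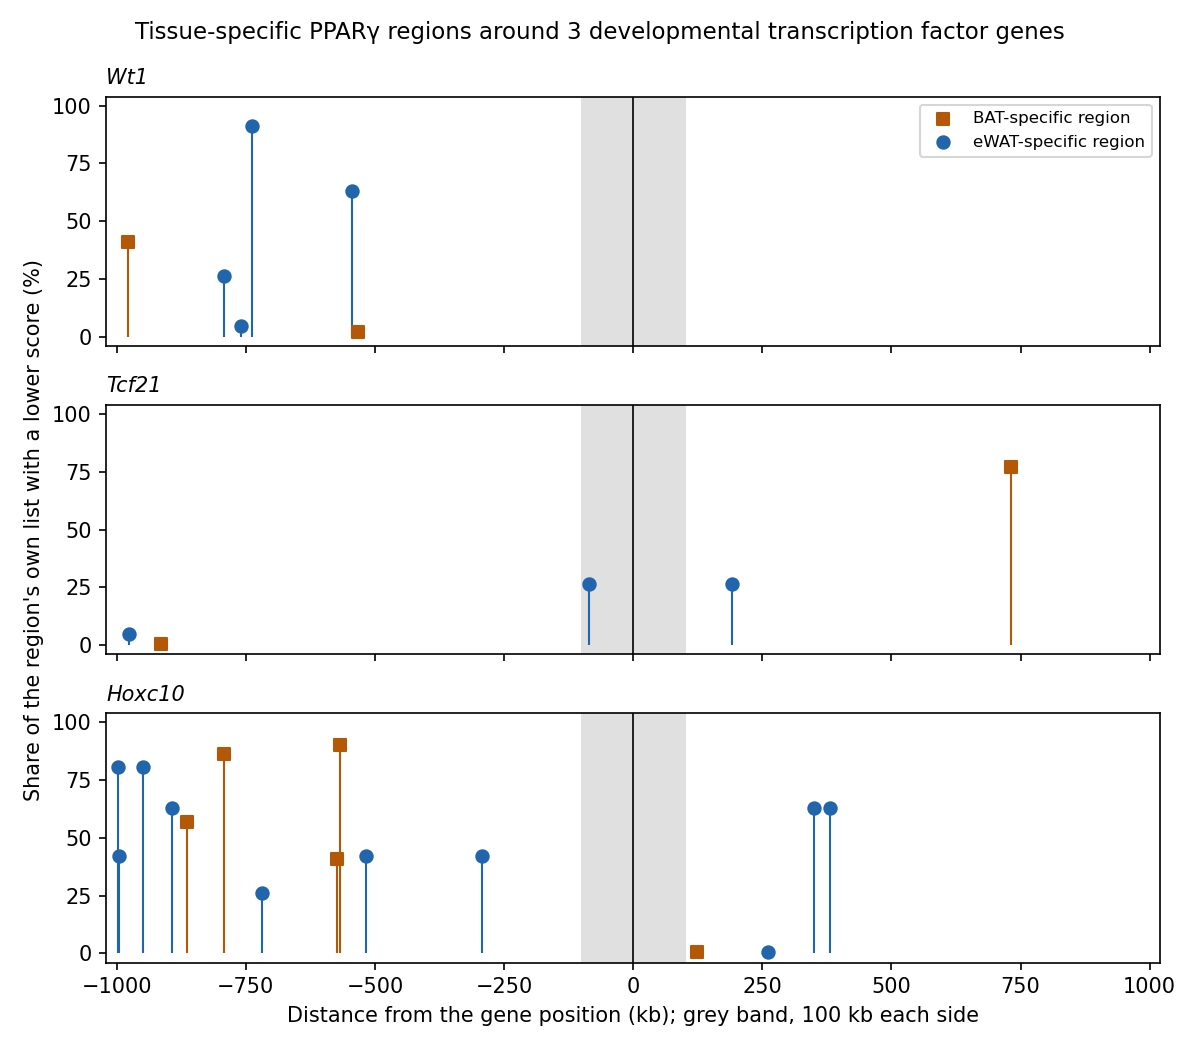
Deposited regions within 1000 kb of the position of each gene. The x axis is the distance from the gene position in kb, the y axis is the share in % of the region's own list that scored lower, squares are BAT-specific and circles eWAT-specific regions, and the grey band is the interval of 100 kb on either side. The single point within a band is the eWAT-specific region 85.4 kb below Tcf21, and no region lies above Wt1.

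Wt1 was the only gene of the 3 without a region of either list within 500 kb on either side. Within 1000 kb it had 4 eWAT-specific and 2 BAT-specific regions, all below the gene, against 3 and 2 for Tcf21. The nearest BAT-specific region was 532 kb below the gene at chr2:104435012-104435211, with a score of 2.13, and 2.11% of the BAT list scored lower. The nearest eWAT-specific region was 545 kb below at chr2:104421673-104421872, with a score of 3.48, and 63.1% of the eWAT list scored lower. These regions lay 13.3 kb from each other, so the closest sites of the 2 tissues to Wt1 were neighbours.

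On the side towards Rcn1 and Pax6, the eye and brain regulator, the first region of either list was BAT-specific. It lay 1343 kb above Wt1 at chr2:106309471-106309670 and scored 6.11, above 85.2% of the BAT list. The first eWAT-specific region on that side followed 4834 kb above the gene. Wt1 therefore fell in a stretch of 5.38 Mb without an eWAT-specific region in the list used here, within which lay 3 BAT-specific regions. Whether the list used here holds every eWAT-specific region of that stretch is not known. Such a spacing is rare, since 0.896% of spacings between neighbouring eWAT-specific regions (42 of 4690) were at least as long. Of window centres, 13.1% fell in an eWAT-free stretch at least as long. That share counts a long stretch once for each window in it and takes in the chromosome ends. For the stretch of 1.87 Mb without a region of either list, the shares were 2.95% of spacings and 31.8% of window centres.

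Hoxc10 and its neighbours had no region in the interval, but regions of both lists beyond it. In the RefSeq order the cluster runs through 9 genes, Hoxc13, Hoxc12, Hoxc11, Hoxc10, Hoxc9, Hoxc8, Hoxc6, Hoxc5 and Hoxc4, and is followed by Smug1, a DNA repair enzyme, and Cbx5, a heterochromatin protein. The region nearest to Hoxc10 was BAT-specific, 123.9 kb above the gene position on the side towards Hoxc4, at chr15:102920786-102920985. It was the first region outside any of the 3 intervals. Its score of 2.06 (30 steps) was near the lower end of the BAT list, where 0.647% of regions scored lower. If a step is 1 tag, the exact Poisson 95% interval of this score is 20.2 to 42.8 tags.

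The eWAT-specific region nearest to Hoxc10 lay 261 kb above it at chr15:103057578-103057777. It scored 1.74 (5 steps), and 0.509% of the eWAT list scored lower. Farther on the same side, 2 eWAT-specific regions with a score of 3.48 each lay 349.5 and 380.8 kb above Hoxc10 and 31.3 kb from each other. On the side towards Hoxc13 the nearest region was eWAT-specific, 293 kb below the gene, with a score of 2.79, and 42.3% of the eWAT list scored lower. The nearest BAT-specific region on that side lay 567 kb below Hoxc10 at chr15:102229937-102230136 and scored 7, above 90.4% of the BAT list. The nearest region of each list was thus low-scoring on the side towards Hoxc4 and not on the side towards Hoxc13. The stretch around Hoxc10 without a region of either list was 417 kb, and 72.8% of window centres fell in a stretch at least as long. Of spacings between neighbouring regions of either list, 18.8% were at least as long.

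**Figure D2:**
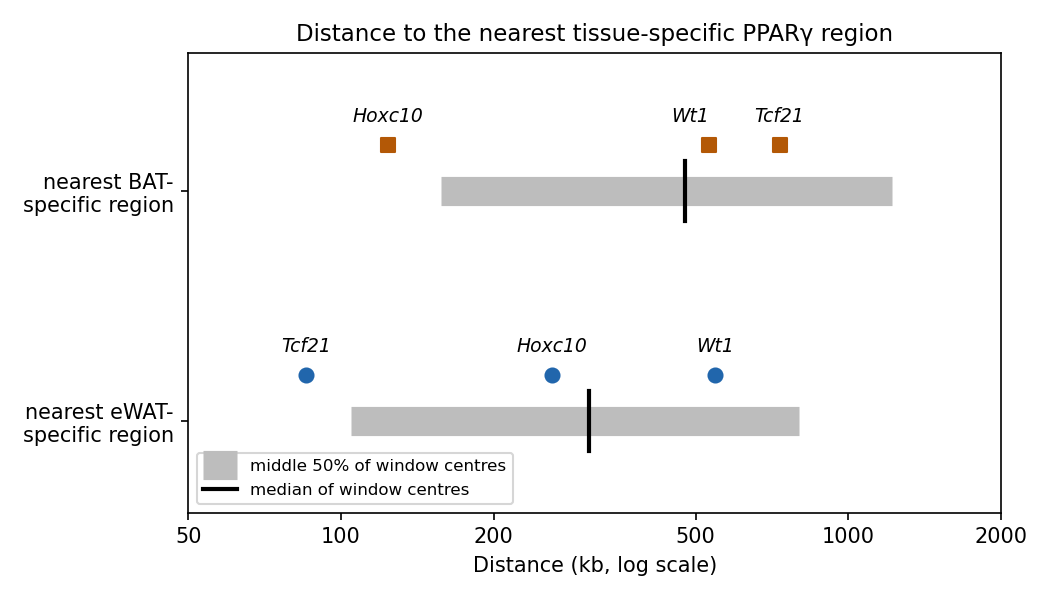
Distance from each gene position to the nearest region of each list, on a log axis in kb. Points are the genes, grey bars span the middle 50% of the centres of the tiled windows and black lines are their medians, which were 476 kb for BAT and 308 kb for eWAT. Tcf21 is nearest to an eWAT-specific region (85.4 kb) and Hoxc10 to a BAT-specific one (123.9 kb).

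The 3 genes did not share an order of distances to the 2 lists. Tcf21 was closer to an eWAT-specific region (85.4 against 732 kb), Hoxc10 was closer to a BAT-specific region (123.9 against 261 kb), and Wt1 was about equally far from both (545 and 532 kb). Widened to 500 kb on either side, the surroundings held 6 eWAT-specific and 1 BAT-specific region in all. Of the eWAT-specific ones, 2 were around Tcf21, 4 around Hoxc10 and 0 around Wt1, and the BAT-specific one was near Hoxc10. At the mean of windows of that width, 3 windows would hold 5.47 and 4.14 regions. The eWAT count was near that scale and the BAT count below it, in 7 regions that are not independent of each other (eWAT share 85.7%, exact Clopper-Pearson 95% interval 42.1 to 99.6%, which includes the 57.0% of all regions). At 1000 kb on either side, a width chosen after the data were seen, 17 eWAT-specific and 9 BAT-specific regions were counted, beside 10.95 and 8.27 at the mean. Of these 26 regions, 15 lay around Hoxc10.

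The 6 eWAT-specific regions within 500 kb had 5 to 10 score steps, in a list with a median of 8 and a highest value of 276 steps. Those of Tcf21 had 7 steps each, and those of Hoxc10 had 5, 8, 10 and 10. If a step is 1 tag, the exact Poisson 95% intervals of the lowest (1.62 to 11.7) and the highest (4.80 to 18.4) overlap. The differences among the 6 scores were not tested. The BAT steps cannot be set against them, because a BAT step is 0.0687 score units and an eWAT step is 0.348. The lowest score was 26 steps in the BAT list and 4 steps in the eWAT list. The counts of the 2 lists, and the eWAT share, were not adjusted for this difference.

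**Figure D3:**
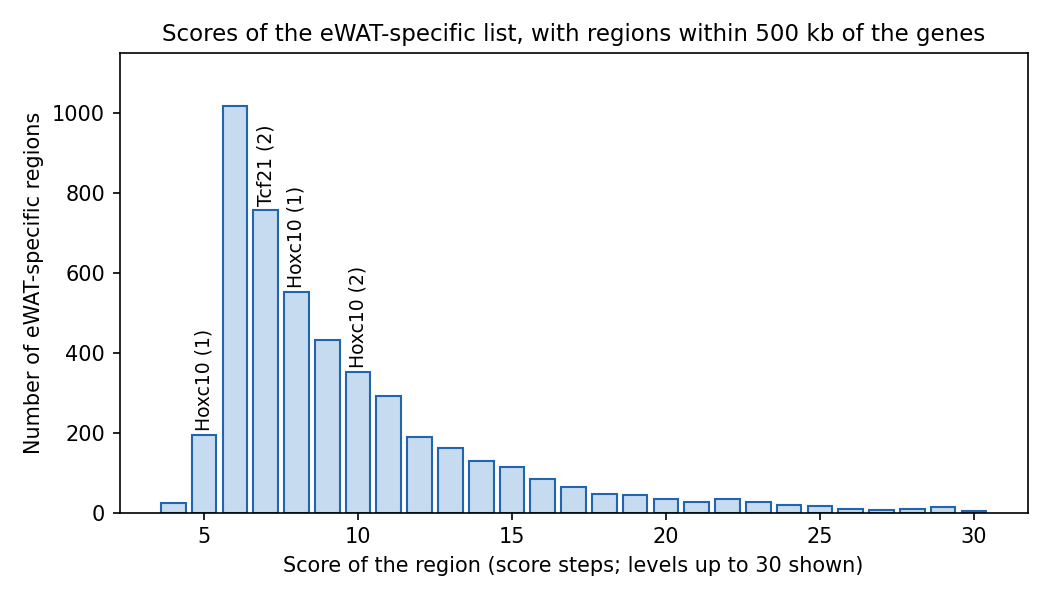
Number of eWAT-specific regions (y axis) at each score level up to 30 steps (x axis). The names mark the levels of the 6 regions within 500 kb of a gene, with their number in brackets. All 6 lie at 5 to 10 steps, around the list's median of 8, and no region near Wt1 is among them.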

How the data were processed

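Each library is PPARγ ChIP DNA of 4 mice, pooled before sequencing, per the labels' protocols. Bowtie and HOMER are the tools, and mm8 and mm9 the builds, that the submitters' processing notes list, without versions or roles. How a region was called tissue-specific and how input DNA was used is not given in the sources used here. The authors deposited a position and a score of unstated unit per region. Its step was fitted in each list, and 99.9% of BAT and 99.8% of eWAT scores were whole multiples within 0.005. The library totals are unknown. The lists name no build. On chromosome 7, 25 BAT and 21 eWAT regions end past the end of that chromosome in mm8 and 0 past its end in mm9 (chromosome lengths from background knowledge, not from the files), so positions were read as mm9 and are printed 1-based.

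Regions were counted by midpoint with Python 3.11.15, pandas 2.3.3 and SciPy 1.17.1. Gene positions are the centres of the given intervals, to the nearest kb. Gene order came from RefSeq (GRCm38), used for names alone. Windows were tiled from 3 Mb to the last region of each chromosome, which leaves gaps in the assembly in. A cluster joins regions within 12.5 kb. No difference between the tissues was tested, since each has 1 library. Every region in the intervals and the nearest of each list were named, and other regions were named after their values were seen. Genes and intervals were chosen with earlier results of these data known. Alternatives were other widths, score limits, merging and shifted windows. The fit of the step was tested on simulated data. No sequence of the regions is shown, since no mm9 genome was used here.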

Additional observations from a re-analysis of the deposited data

How the results depend on the processing

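The count of 1 eWAT-specific region in the 3 intervals became 0 with 50 kb on either side of the genes, 2 with 200 kb, 6 with 500 kb and 17 with 1000 kb, the last width chosen after the data were seen. It became 0 among regions at or above the median score of their list, and stayed 1 when regions scoring under the lowest BAT region were removed and with regions within 1 kb merged. These outcomes follow from the region's score of 2.44 and its distance of 277 kb to the next eWAT-specific region, so they are no check of it. The lowest BAT score, 1.79, was applied to the eWAT list although the unit of the scores is not stated. The count of 0 BAT-specific regions became 1 with 200 kb and with 500 kb on either side and 9 with 1000 kb, and stayed 0 under the other alternatives. Wider intervals can only add regions. A narrower interval, the score limits and merging can only remove or join regions, so under them the count of 0 could not change. The eWAT share was 66.7% with 200 kb (3 regions), 85.7% with 500 kb (7 regions) and 65.4% with 1000 kb (26 regions), and had no value with 50 kb or in the upper part of the lists by score, where no region was left. Windows shifted by 50% of their width held an eWAT-specific region in 24.3% of cases, beside 24.1% in the text. No paired analysis was possible because there is a single library for each tissue, and for that reason none could be left out. If a step is 1 tag, the score of the Tcf21 region rests on 7 tags.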
